A study of Mus musculus with 4 samples.

Results

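The genes described here carry growth hormone and gp130 cytokine signals into the cell. They are the receptor genes Ghr, Lifr, Il6st and Osmr, the transcription factor genes Stat3, Stat5a and Stat5b, and the feedback inhibitor genes Socs2 and Socs3. They were chosen by name, 9 of the 34547 genes in the tables, and the estimated counts and TPM values of each gene's transcripts were summed. RNA was sequenced from cartilage of C57BL/6 mouse forelimbs, cut from cryosections with a laser, to compare chondrocytes before and after hypertrophy. PC denotes proliferating chondrocytes of stage E14.5 (replicates 1 and 2), and HC denotes hypertrophic chondrocytes of stage E15.5 (replicates 3 and 4). The stage is the age in embryonic days. No allele, transgene or treatment is named for either group, and age and cell state changed together, so they cannot be told apart. The labels do not say whether the 2 libraries of a group came from separate embryos, so p-values measure only the spread between these libraries, which may be technical.

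As background, these receptors have no kinase of their own. Binding of the ligand brings together receptor chains that hold Janus kinases, which then phosphorylate STAT proteins, and these enter the nucleus and switch on genes. Growth hormone acts through a pair of GHR chains and mainly through STAT5. Leukaemia inhibitory factor and oncostatin M act through gp130, the product of Il6st, paired with the LIF receptor or the oncostatin M receptor, and mainly through STAT3. SOCS proteins are made in response and shut the receptors down, and mice without Socs2 grow larger than normal. In the growth plate, growth hormone is known for driving postnatal lengthening of bones.

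Libraries held 30373440 and 36644496 estimated counts in PC and 15246529 and 21866266 in HC. All 8 proliferating zone markers listed were lower in both HC libraries than in both PC libraries, and all 8 hypertrophic zone markers were higher. Of these, 1 proliferating and 4 hypertrophic zone markers passed the test described below. Summed over the second list, CPM (counts relative to library depth, scaled with TMM factors) was 397.2 and 1821 in PC and 34220 and 41510 in HC, so the labels and the markers point the same way. Of 10 chondrocyte markers, 7 were lower and 2 higher in both HC libraries than in both PC libraries, and 0 passed. Their summed CPM was 67980 and 53720 in PC and 43070 and 49870 in HC. Markers of other cells were higher in HC. In the order PC 1, PC 2, HC 3 and HC 4, summed CPM was 726.9, 1238, 13470 and 4669 for 9 osteoblast and perichondrium markers and 28.63, 24.68, 257.1 and 133.3 for 8 endothelial markers. It was 16.91, 21.49, 207.8 and 97.07 for 11 macrophage and osteoclast markers, 26.3, 36.23, 283.3 and 74.96 for 9 muscle markers, and 24.82, 43.08, 332.1 and 306.4 for 8 red blood cell markers, of which Hbb-bh1 was at 0 in all libraries. In these bulk samples, fewer cells of a type and less RNA per cell cannot be told apart.

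Osmr and Socs2 rose from PC to HC, the first 3.907-fold and the second 4.688-fold. The other 7 genes did not pass the test, edgeR's quasi-likelihood F-test with Benjamini-Hochberg adjustment over 16607 genes and a threshold of 0.05. Ghr, Lifr and Stat3 were nevertheless higher in both HC libraries than in both PC libraries, while Il6st and Stat5a were lower and Stat5b and Socs3 overlapped. All 9 genes passed the filter on low counts. Of all genes tested, 2.75% were called higher and 1.96% lower, and 27.7% had both HC libraries above both PC libraries, against 5 of these 9, while 33.3% had them below, against 2 of these 9. The median log2 fold change of the 9 genes was 0.98, and that of all genes tested was -0.04. The 9 genes were chosen with earlier results of these data known, so these shares and medians cannot show that the set stands out.

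**Figure D1:**
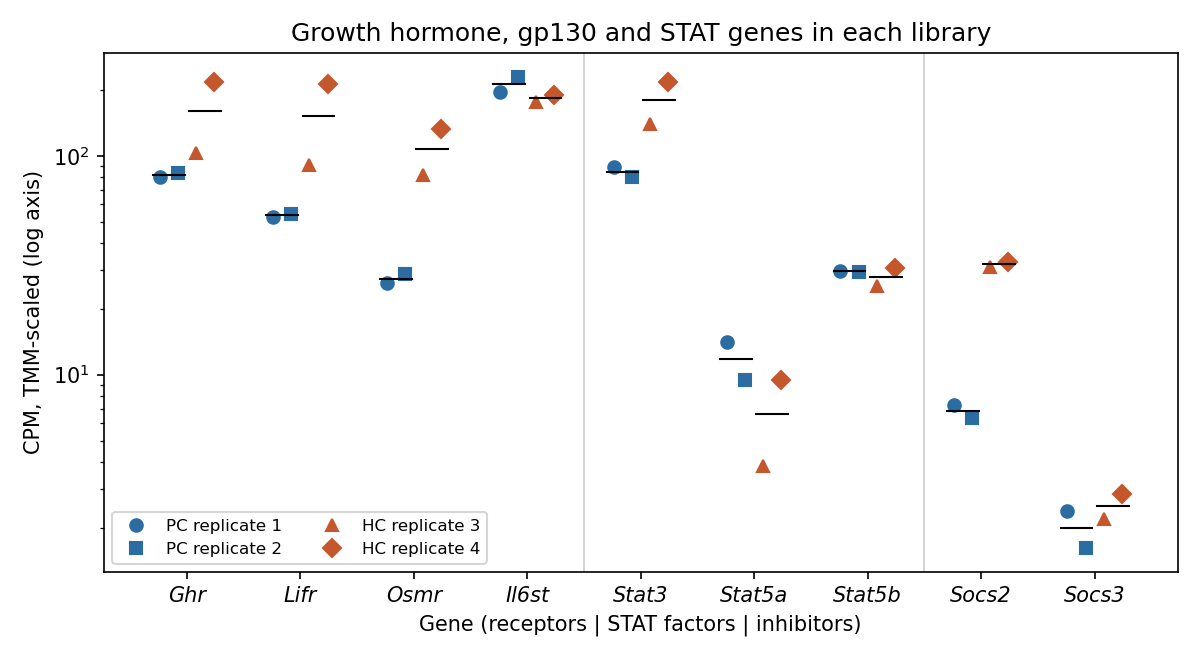
Expression of the 9 genes in each library, in CPM after TMM scaling on a log axis, with each library as a symbol (blue PC, orange HC) and the mean of a group as a black bar. The HC libraries of Socs2 lie close together (31.0 and 32.8 CPM), whereas for Ghr, Lifr, Osmr and Stat3 HC replicate 4 stands well above HC replicate 3.

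Osmr (chromosome 15, 6813577 to 6874969, minus strand, GRCm38) encodes the chain that gives gp130 its specificity for oncostatin M. It had 26.2 and 28.9 CPM (PC) against 82.0 and 132.9 CPM (HC). In CPM, both PC libraries were low and close to each other, and both HC libraries were well above them. In TPM, Osmr had 10.4 and 12.6 (PC) against 14.6 and 45.8 (HC), so HC replicate 3 lay only slightly above PC replicate 2. Transcripts annotated as retained intron took 41.8% and 56.0% of this TPM in PC and 36.1% and 43.0% in HC. With limma on log2(TPM + 1) the log2 fold change of Osmr was 1.115. Osmr rose by 1.97 ± 0.35 on the log2 scale (SE, n = 2 per group, adjusted p by edgeR = 0.0437). Without PC replicate 1 or PC replicate 2 the size was kept (1.90 and 2.04) but the call was lost (adjusted p by edgeR = 0.106 and 0.0592), and without HC replicate 3 or HC replicate 4 it passed (adjusted p by edgeR = 0.00141 and 0.00591). A fit without 1 HC library sets a single HC library against PC, with the spread between replicates taken from PC and the lone library assumed to vary alike. Such fits called 2131 and 2802 of all genes higher and 2767 and 3747 lower, so a pass in them, for any gene here, is given as a value and lends no support. Osmr also did not pass with scaling to library size alone, with a length offset, with limma on TPM or with protein-coding transcripts alone (adjusted p from 0.0639 to 0.334).

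The promoter of Osmr is shown because this is the receptor that passed, and that of Socs3 because it holds the STAT consensus. Both are 300-base windows from RefSeq (GRCm38.p6), 250 bases before to 50 after the annotated start, written 5′ to 3′ along the gene, with matches to TTCNNNGAA in capitals. This motif reads the same on both strands.
Osmr, chr15:6874264-6874563, minus strand: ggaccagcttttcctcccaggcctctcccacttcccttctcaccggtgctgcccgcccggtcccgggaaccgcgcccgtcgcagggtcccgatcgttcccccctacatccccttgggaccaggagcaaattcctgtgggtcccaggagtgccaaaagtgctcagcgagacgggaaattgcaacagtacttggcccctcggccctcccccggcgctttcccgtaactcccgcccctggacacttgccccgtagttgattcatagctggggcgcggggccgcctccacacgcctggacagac
Socs3, chr11:117969317-117969616, minus strand: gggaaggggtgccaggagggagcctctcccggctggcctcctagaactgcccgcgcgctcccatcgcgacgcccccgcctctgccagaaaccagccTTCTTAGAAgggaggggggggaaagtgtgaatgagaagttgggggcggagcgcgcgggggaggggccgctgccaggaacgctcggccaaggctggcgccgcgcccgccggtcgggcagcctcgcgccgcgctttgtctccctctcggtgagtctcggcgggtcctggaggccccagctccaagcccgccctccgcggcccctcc
Of the 9 genes, 8 matched the promoter table, with 12 windows, and Socs2 did not. The motif was found in 1 of the 12 windows, that of Socs3, where it begins at position -154 from the start. It is present in 8.3% of all 32851 promoter windows and in 6 of 72 windows of the other genes of the pathway. Among the latter, Cish, another feedback inhibitor, holds TTCCTGGAA and TTCTTGGAA, which begin at bases 1 and 12 counted from the start. A match is a description of the letters, and the Osmr window has no match.

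Lifr lies next to Osmr on chromosome 15 (7090614 to 7197489, plus strand), 215644 bases away with no protein-coding gene of the tables between them. It encodes the chain that pairs with gp130 to bind leukaemia inhibitory factor. Lifr had 52.7 and 54.2 CPM (PC) against 90.9 and 213.2 CPM (HC). Both HC libraries were above PC, but HC replicate 4 had 2.344 times the CPM of HC replicate 3. In TPM, Lifr had 12.0 and 11.8 (PC) against 12.4 and 46.5 (HC), so HC replicate 3 was nearly level with PC. The log2 fold change of 1.51 ± 0.45 did not pass (adjusted p by edgeR = 0.105). It fell short without HC replicate 4 (0.75, adjusted p by edgeR = 0.0775). Lifr passed without HC replicate 3 (1.995, adjusted p by edgeR = 0.00274), with DESeq2 (adjusted p = 0.0092) and with no filter (adjusted p by edgeR = 0.0412).

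Il6st (chromosome 13, 112464070 to 112510086) encodes gp130, the chain common to this receptor family,. It had 196.8 and 230.4 CPM (PC) against 176.9 and 189.3 CPM (HC). The groups lay close together, with a log2 fold change of -0.22 ± 0.29 (adjusted p by edgeR = 0.671) that turned to 0.11 with a length offset. A change of Il6st was not detectable with these libraries.

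Because the gp130 partners and gp130 itself are read from 1 library, the ratio of their counts needs no scaling between libraries. The ratio of Osmr to Il6st counts was 0.133 and 0.125 in PC and 0.464 and 0.702 in HC. That of Lifr to Il6st was 0.268 and 0.235 in PC and 0.514 and 1.13 in HC. For both pairs, each HC library lay above each PC library. The counts are those used for the single genes, so the ratios lend no separate support. These ratios depend on transcript length and compare libraries, not genes.

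**Figure D2:**
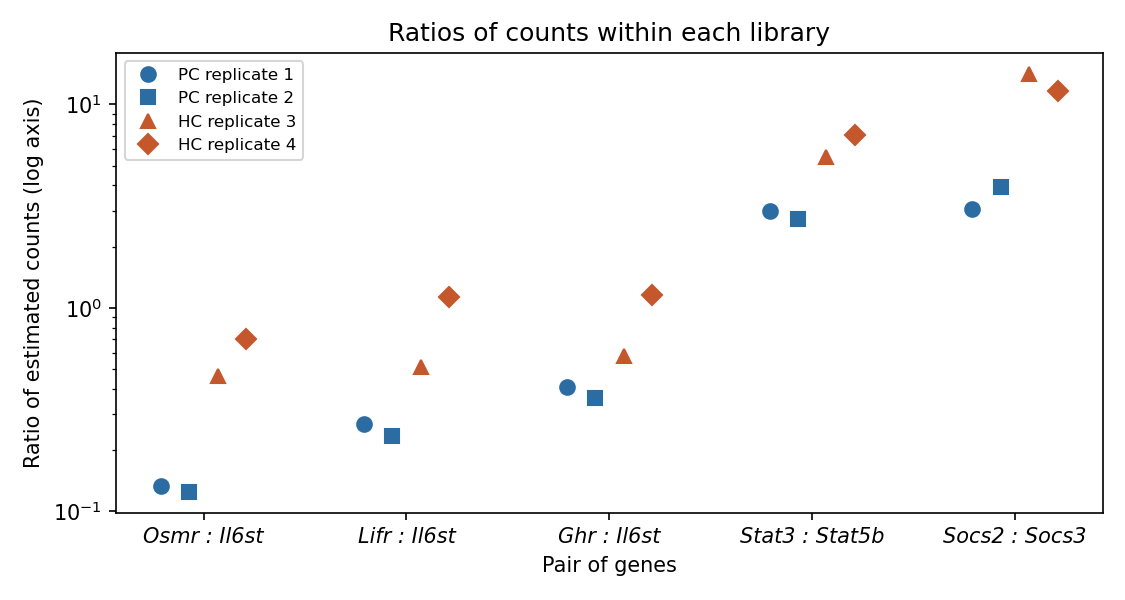
Ratios of summed estimated counts of 2 genes within each library, on a log axis, with 1 symbol per library (blue PC, orange HC). In all 5 pairs both HC libraries lie above both PC libraries, from 0.133 and 0.125 to 0.464 and 0.702 for Osmr to Il6st. Each pair sets a gene that was higher in both HC libraries over a gene that was not, so this order follows from the values of the single genes.

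Ghr (chromosome 15, 3317760 to 3583492, minus strand) encodes the growth hormone receptor. It had 80.0 and 83.1 CPM (PC) against 102.9 and 218.3 CPM (HC). PC replicates were nearly equal, HC replicate 3 was slightly above them and HC replicate 4 far above. The log2 fold change was 0.98 ± 0.42 and did not pass (adjusted p by edgeR = 0.204). It was 0.32 without HC replicate 4 and 1.42 without HC replicate 3, where it passed (adjusted p by edgeR = 0.443 and 0.0128). On the TPM scale the groups overlapped, with 61.1 and 50.6 in PC and 45.4 and 126.9 in HC. Transcripts annotated as retained intron took 25.6% and 29.5% of this TPM in PC and 19.2% and 36.3% in HC.

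In the mouse, a secreted growth hormone binding protein is made from short alternative transcripts of Ghr. Here 2 transcripts (Ghr-201 and Ghr-208) carried the long coding sequence of 650 codons, and 2 (Ghr-202 and Ghr-203) a short one of 297 codons. The forms part after a shared coding exon, and the exons that follow are printed because they tell the forms apart. The long form continues with 91 coding bases that encode the membrane-spanning stretch, and the short form ends with 80 coding bases of its own. Both are from the GENCODE M21 transcripts (GRCm38), in transcript sense.
Ghr-201 exon 9, chr15:3325898-3325988, minus strand: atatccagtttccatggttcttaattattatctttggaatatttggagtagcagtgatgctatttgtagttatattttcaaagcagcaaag
Ghr-202 exon 9, chr15:3327607-3327686, minus strand: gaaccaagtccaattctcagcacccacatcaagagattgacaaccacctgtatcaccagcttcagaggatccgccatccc
The short form had 9.92 and 4.59 TPM (PC) against 16.3 and 25.3 TPM (HC), so that both HC libraries were higher. The long form had 22.8 and 22.2 in PC and 13.1 and 41.7 in HC, with 1 HC library below and 1 above PC. The short form made up 30.3% and 17.1% of both forms together in PC and 55.4% and 37.7% in HC. It rested on 236.9, 143.1, 271.5 and 480.8 estimated counts in PC 1, PC 2, HC 3 and HC 4. Counts of single transcripts are likelihood estimates whose assignment error is unknown, so no test was made.

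Lifr also has a short coding transcript, Lifr-202, with 719 codons against 1092 in Lifr-201 and Lifr-203. Its TPM was 2.33 and 3.68 in PC and 4.10 and 12.2 in HC, and its share of both forms was 19.4% and 31.1% in PC and 33.0% and 26.2% in HC. The shares overlapped between the groups, unlike those of Ghr.

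**Figure D3:**
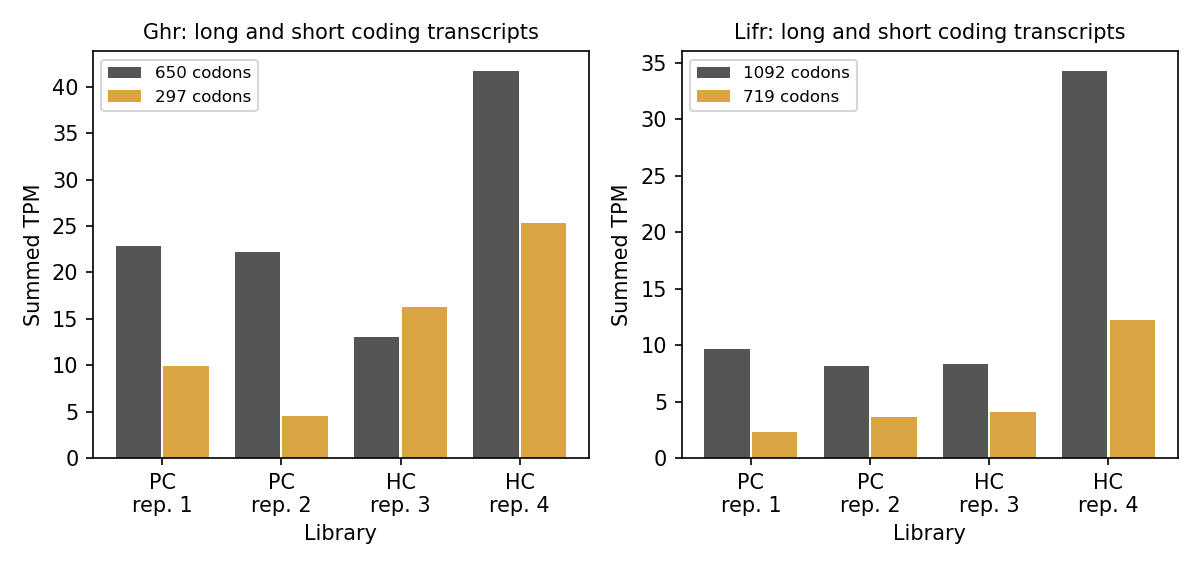
Summed TPM of the long (grey) and short (gold) coding transcripts of Ghr, left, and Lifr, right, in each library, with bars starting at 0. The short Ghr form is above the long one in HC replicate 3 (16.3 against 13.1 TPM) and below it in the other 3 libraries, and the long Lifr form is above the short one in all 4 libraries.

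The 3 STAT genes lie side by side on chromosome 11, with Stat5b (100780731 to 100850724), Stat5a (100859351 to 100885169) and Stat3 (100885098 to 100939540) in that order. Stat5b and Stat5a are near-copies 8626 bases apart. Stat5a and Stat3 lie on opposite strands and overlap by 72 bases of exon, and reads from that stretch cannot be told apart because no strand setting was given in the sources used here.

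Stat3, the main mediator of gp130 signals, had 88.6 and 80.4 CPM (PC) against 140.6 and 218.0 CPM (HC). Both HC libraries were above both PC libraries. The log2 fold change of 1.09 ± 0.34 did not pass (adjusted p by edgeR = 0.110), while it passed without HC replicate 3 (1.37, adjusted p by edgeR = 0.0154) and with DESeq2 (adjusted p = 0.0172). Without HC replicate 4 it was 0.72 (adjusted p by edgeR = 0.105). Most of the summed TPM of Stat3 was assigned to transcripts annotated as retained intron, 59.3% and 73.0% in PC and 78.4% and 78.6% in HC. TPM is per length and these models are mostly short, so they held a smaller share of the estimated counts of Stat3 than of its TPM. This share was a minority in every library but a large one in HC. The model of 826 bases alone held 206.5 and 889.1 counts in PC and 756.8 and 973.2 in HC. The gene had 3050 and 3097 counts in PC and 1732 and 4843 in HC. In PC replicate 1, a retained intron model of 396 bases had 27.6 TPM from 142.0 counts. A coding model of 6042 bases had 1.24 TPM from 167.0 counts there. The tested change rests on counts, those of the retained intron models included. Coding transcripts of Stat3 had 31.5 and 20.2 TPM in PC and 21.6 and 44.9 TPM in HC, which overlapped, and the log2 fold change from protein-coding transcripts alone was 0.76 (adjusted p by edgeR = 0.254).

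Stat5a and Stat5b encode the STAT5 proteins that act below the growth hormone receptor. Stat5a had 14.2 and 9.50 CPM (PC) against 3.82 and 9.45 CPM (HC). HC replicate 3 stood low, with 47 counts, and HC replicate 4 was level with PC replicate 2. The log2 fold change was -0.83 ± 0.59 (adjusted p by edgeR = 0.422), -0.32 without HC replicate 3 and -1.64 without HC replicate 4, where it passed (adjusted p by edgeR = 0.0231).

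Stat5b had 29.7 and 29.6 CPM (PC) against 25.4 and 30.7 CPM (HC). The values overlapped and the log2 fold change was -0.08 ± 0.31 (adjusted p by edgeR = 0.900), with 0.05 without HC replicate 3 and 0.0052 among genes with at least 50 counts in 2 libraries. Stat3 counts were 2.98 and 2.72 times those of Stat5b in PC and 5.53 and 7.09 times in HC.

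Socs2 (chromosome 10, 95385362 to 95417180) encodes the inhibitor that growth hormone induces through STAT5. It had 7.29 and 6.31 CPM (PC) against 31.0 and 32.8 CPM (HC), from 251, 243, 382 and 728 counts. The libraries of each group were close to each other and far from the other group. Socs2 had a log2 fold change of 2.23 ± 0.35 (SE, n = 2 per group, adjusted p by edgeR = 0.0370). Leaving out any 1 library gave 2.13 to 2.34, but without PC replicate 1 or PC replicate 2 the call was lost (adjusted p by edgeR = 0.0768 and 0.1). It was also lost with scaling to library size alone, a length offset, limma on TPM or protein-coding transcripts alone (adjusted p from 0.0555 to 0.141).

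The 2 main coding transcripts of Socs2 were split differently between the groups. The model of 2222 bases was estimated at 2.75 and 1.48 TPM in PC and was listed at 0 in both HC libraries. The model of 2153 bases was at 0.00055 and 0.745 TPM in PC and 8.43 and 11.7 TPM in HC. Both encode 198 codons, so the coding sequence has the same length, and how the reads were split between them is an estimate of unknown error.

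Socs3 (chromosome 11, 117966079 to 117970047) encodes the inhibitor that gp130 signals induce through STAT3. It had 2.38 and 1.61 CPM (PC) against 2.19 and 2.84 CPM (HC), from 27 to 82 counts. The groups overlapped, with a log2 fold change of 0.33 ± 0.80 (adjusted p by edgeR = 0.828) that turned to -0.15 and -0.25 with limma on log2(TPM + 1) and log2(TPM + 0.1). Socs2 counts were 3.06 and 3.92 times those of Socs3 in PC and 14.1 and 11.6 times in HC.

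**Figure D4:**
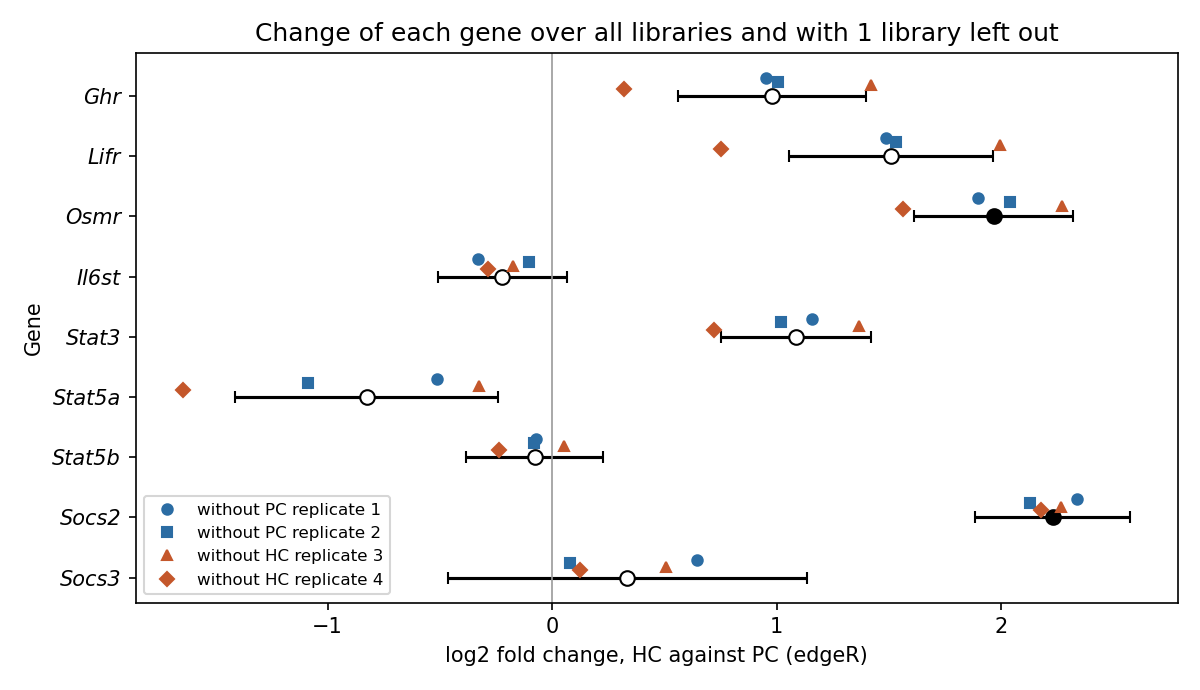
Log2 fold change of each gene, HC against PC, from edgeR over all 4 libraries (black circles, filled where the gene passed, bars are 1 SE) and with 1 library left out (coloured symbols). Osmr and Socs2 stay above 1.5 in every fit shown, Ghr and Lifr fall to 0.32 and 0.75 without HC replicate 4, and Stat5a runs from -1.64 to -0.32.

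Levels of different genes were compared per length, as summed TPM of coding transcripts. In PC the means ran from Il6st (69.88) through Ghr (31.97), Stat3 (25.83), Lifr (11.93), Stat5b (8.44), Osmr (5.811), Stat5a (5.427) and Socs2 (2.774) to Socs3 (1.167). The neighbours Ghr and Stat3, and Osmr and Stat5a, overlapped between libraries. In HC the order was Il6st (54.35), Ghr (49.53), Stat3 (33.26), Lifr (29.48), Osmr (17.71), Socs2 (13.14), Stat5b (5.904), Stat5a (1.74) and Socs3 (1.087). All neighbours overlapped in HC except Socs2 and Stat5b, and Stat5b and Stat5a. The level of Il6st is uncertain, since a short coding model, Il6st-202, took 22.4 of 55.3 TPM in HC replicate 3 and 0 in HC replicate 4.

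Markers of other cells moved with the group too, and signs of tissue handling and RNA quality did so in part. Osteoblast and perichondrium, endothelial, muscle, and macrophage and osteoclast markers had higher sums in HC replicate 3 than in HC replicate 4. The red blood cell sum was nearly level (332.1 and 306.4 CPM in HC replicates 3 and 4). Ghr, Lifr, Osmr and Stat3 were higher in HC replicate 4, and Socs2 was level (HC replicate 4 over replicate 3, 1.057). Immediate early genes, which respond to handling of tissue, summed to 40.89 and 40.07 CPM (PC) against 223.6 and 250.3 CPM (HC). Most of the HC sums was Egr1, with 7.21 and 12.6 CPM (PC) against 166.3 and 161.6 CPM (HC). Of the 9 genes listed, 6 had both HC libraries above both PC libraries. Jun and Ier2 did not rise (log2 fold change -0.38 and -0.02). Mitochondrial genes took 8.81% and 13.15% (PC) against 20.16% and 14.11% (HC) of all counts. Here HC replicate 4 was close to PC replicate 2. The predicted gene Gm10800 took 1.75% and 2.39% (PC) against 8.75% and 2.67% (HC), so HC replicate 3 stood apart. Genes with a count numbered 21231 and 21024 (PC) against 16900 and 17878 (HC), and both HC libraries also held fewer counts. The part of these in the changes of Osmr and Socs2 was not tested.

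The other genes of the pathway were 75 by list, of which 61 were tested. Of these 1 rose, 2 fell and 58 did not pass, and 4.92% were called against 4.71% of all genes tested. Both HC libraries were above both PC libraries in 26 of the 61 and below in 18, against 27.7% and 33.3% of all genes tested. The median log2 fold change was 0.29, against -0.04 for all genes tested. The 3 that passed are all among the targets of STAT3 or STAT5.

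Among ligands, growth hormone (Gh), prolactin (Prl) and oncostatin M (Osm) had 0 counts in all 4 libraries. A count of 0 allows up to 0.0872 and 0.0778 CPM (PC) against 0.244 and 0.135 CPM (HC) (3 counts per library, counting error only). Il6 had 3 counts in PC replicate 1 and 0 elsewhere. Lif, the ligand of the LIF receptor, had 0.581 and 0.805 CPM (PC) against 8.04 and 3.20 CPM (HC), a log2 fold change of 3.01 ± 0.86 that did not pass (adjusted p by edgeR = 0.0969). It passed without HC replicate 3 (2.20) or HC replicate 4 (3.51), and with DESeq2 (adjusted p = 0.01).

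Ctf1, Cntf and Clcf1 lay lower in HC. Ctf1 (cardiotrophin), which also acts through gp130 and LIFR, had 134 and 80 counts in PC and 2 and 7 in HC, which gave a log2 change of -3.59 ± 1.06 (adjusted p by edgeR = 0.101) that passed without HC replicate 3 or HC replicate 4 (adjusted p by edgeR = 0.0164 and 0.0106) and with DESeq2 (adjusted p = 0.0288). Cntf had 64, 117, 0 and 22 counts and Clcf1 36, 23, 0 and 12 in PC 1, PC 2, HC 3 and HC 4, and neither passed (adjusted p by edgeR = 0.422 and 0.592). Both passed without HC replicate 4 (adjusted p by edgeR = 0.00549 and 0.0302), a fit that sets PC against 1 library with 0 counts. Csf3, which signals through a receptor of its own, had 1.25 and 32.9 CPM (PC) against 542.5 and 39.4 CPM (HC), a spread too wide to pass (log2 fold change 4.09 ± 1.75, adjusted p by edgeR = 0.203). Csf3 passed without PC replicate 1 (3.14), PC replicate 2 (7.86) or HC replicate 4 (4.97), and with no filter (4.05). Without HC replicate 3, the library with 542.5 CPM, the value dropped to 1.20 (adjusted p by edgeR = 0.47).

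No other receptor, Janus kinase or STAT passed. The share at an unadjusted edgeR p under 0.05 was 2 of 8, 1 of 4 and 1 of 4, against 27% of all genes tested. Jak1, a kinase bound to gp130, had 33.4 and 33.0 CPM (PC) against 68.7 and 109.4 CPM (HC) (log2 fold change 1.42 ± 0.34, adjusted p by edgeR = 0.0726), and passed without HC replicate 3 or HC replicate 4 (adjusted p by edgeR = 0.00425 and 0.027). It also passed with DESeq2, with no filter and with the filter at 50 counts (adjusted p = 0.00246, 0.0318 and 0.0451). Jak2, the kinase bound to the growth hormone receptor, overlapped, with 50.01 and 49.24 CPM (PC) against 37.3 and 72.2 CPM (HC). Its log2 fold change of 0.14 ± 0.39 turned to -0.43 without HC replicate 4 and to -0.07 with scaling to library size alone. Tyk2 had -0.72 ± 0.47.

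Stat6, which serves interleukin 4, had 15.2 and 12.0 CPM (PC) against 29.2 and 41.3 CPM (HC) (1.38 ± 0.36, adjusted p by edgeR = 0.0826), and passed without HC replicate 3 or HC replicate 4 (adjusted p by edgeR = 0.00878 and 0.0323) and with DESeq2 (adjusted p = 0.0115). Stat2 was at 0.51 ± 0.40. Of the receptors, Lepr had 1.09 ± 0.38, Il6ra 0.62 ± 0.39, Il11ra1 -0.46 ± 0.37 and Cntfr -0.51 ± 1.15 on the same log2 scale. Lepr, the leptin receptor, passed without HC replicate 4 (1.22), as did Cntfr (-2.73), which rests there on 4 counts in HC replicate 3. The sign of Stat2 and Cntfr turned under other settings.

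Of 19 other inhibitors and adaptors, 0 passed with edgeR and 6 had an unadjusted edgeR p under 0.05, against 27% of all genes tested. Their median log2 fold change was -0.15, against -0.04 for all genes tested. Cish, a relative of Socs2 that STAT5 also induces, had 2.01 and 1.17 CPM (PC) against 5.76 and 5.72 CPM (HC). The groups were apart, but the log2 fold change of 1.85 ± 0.69 missed the threshold (adjusted p by edgeR = 0.159). It passed when HC replicate 3 or HC replicate 4 was left out (adjusted p by edgeR = 0.0294 and 0.0262). The phosphatases Ptpn1 and Ptpn11 had 0.998 ± 0.345 and -0.28 ± 0.28, and the adaptor Stam 0.32 ± 0.30. Ptpn1 passed without HC replicate 3 (1.24), and with protein-coding transcripts alone Ptpn1 and Stam turned to -0.02 and -0.32.

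Of 21 targets of STAT3 or STAT5 tested, 1 rose and 2 fell, and 18 did not pass. Over all genes tested, 2.75% were called higher and 1.96% lower. An unadjusted edgeR p under 0.05 was found for 11 of the 21, 8 higher and 3 lower, against 27% of all genes tested. Both HC libraries were above both PC libraries in 13 and below in 6, against 27.7% and 33.3% of all genes tested. The list was chosen with earlier results of these data known, so these shares cannot show that it stands out. The survival kinase Pim1 rose from 8.52 and 8.59 to 82.1 and 93.3 CPM, by a log2 change of 3.36 ± 0.31 (adjusted p by edgeR = 0.0359). Leaving out any 1 library gave 3.25 to 3.45. Pim1 did not pass with library size scaling (0.0515), limma on TPM (0.0614 and 0.0711) or protein-coding transcripts alone (0.053), which are adjusted p values. The cyclin Ccnd1 fell from 98.0 and 94.2 to 29.1 and 29.7 CPM (-1.71 ± 0.28, adjusted p by edgeR = 0.0392), a call lost without PC replicate 1 or PC replicate 2 (-1.68 and -1.74, adjusted p by edgeR = 0.109 and 0.0681). Myc, a driver of cell growth, fell from 242.2 and 128.2 to 30.7 and 46.9 CPM (-2.25 ± 0.44, adjusted p by edgeR = 0.0496), a call lost without PC replicate 1 (-1.72, adjusted p by edgeR = 0.0891). Ccnd1 and Myc also did not pass with library size scaling, the length offset, limma on TPM or protein-coding transcripts alone (adjusted p from 0.0504 to 0.0744 for Ccnd1 and from 0.0538 to 0.0896 for Myc). Many other inputs act on these genes.

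Igf1, the growth factor that growth hormone induces, had 3.05 and 5.40 CPM (PC) against 15.7 and 9.32 CPM (HC), with a log2 fold change of 1.56 ± 0.55 (adjusted p by edgeR = 0.143) that passed without HC replicate 4 (1.88). The cyclin Ccnd2 was at -1.17 ± 0.38 and passed without HC replicate 3 (-1.59) and with DESeq2 (adjusted p = 0.0187). The protease inhibitor Timp1 was at 0.68 ± 0.36 and passed without HC replicate 4 (0.99).

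**Figure D5:**
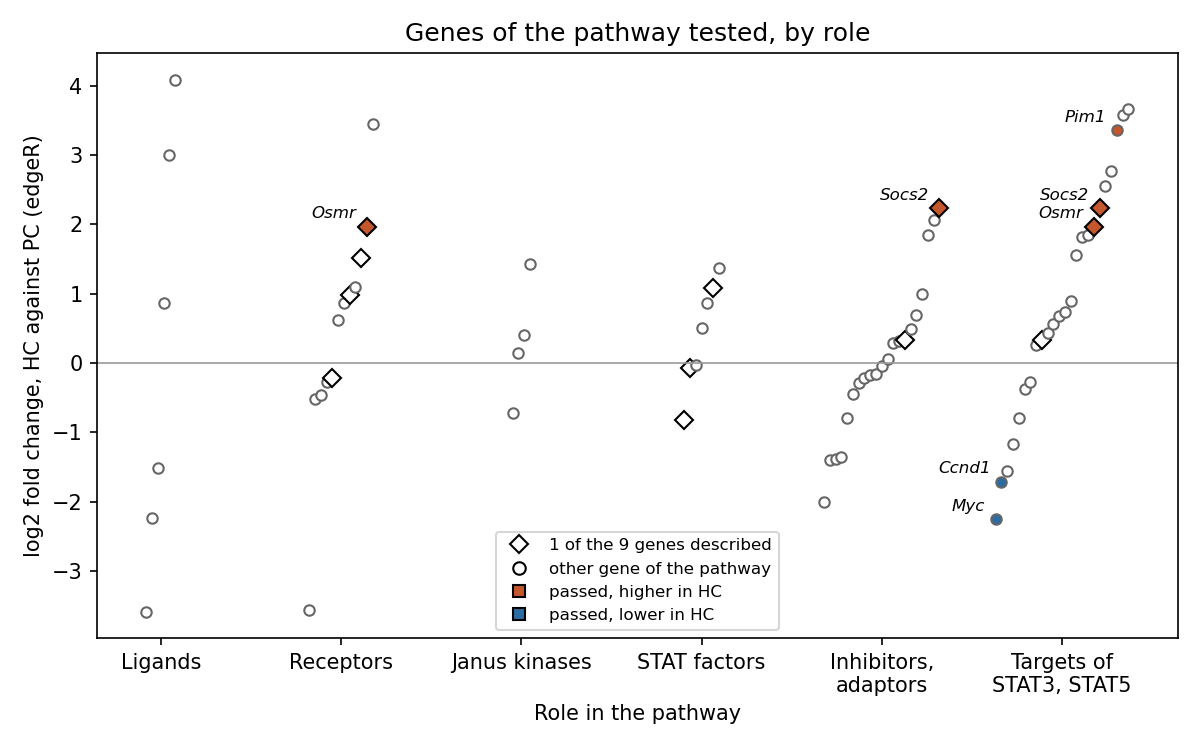
Log2 fold change, HC against PC (edgeR), of each gene of the pathway that was tested, by role, with a gene shown under each of its roles. Diamonds are the 9 genes described and circles the others, and filled symbols passed: Osmr, Socs2 and Pim1 higher and Ccnd1 and Myc lower.

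The genes nearest to Osmr and Socs2 in pattern were sought by the root mean square distance between centred log2 CPM values over the 4 libraries, among 6641 protein-coding genes with a mean TPM of at least 10. Nearest to Osmr were Rassf3 (distance 0.0509), Narf (0.058) and Dach1 (0.0656). Nearest to Socs2 were Osbpl5 (0.113), Nupr1 (0.136) and Wnk4 (0.14). Rassf3, for instance, had 13.25 and 15.45 CPM (PC) against 42.21 and 73.87 CPM (HC). These distances are a description over 4 libraries.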

How the data were processed

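Trimmomatic 0.36, kallisto 0.43.1 and build mm10 are named in the submitters' processing notes. Each deposited table gives estimated counts and TPM by transcript, per the file headers, with lengths and effective lengths. No strand setting was given in the sources used here.

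Of 109282 transcripts, 107987 matched GENCODE M21 (GRCm38) by identifier. Estimated counts were summed per gene, rounded and filtered with filterByExpr of edgeR 4.0.16, which left 16607 genes. After TMM scaling (factors 1.14, 1.058, 0.812 and 1.021 for PC 1, PC 2, HC 3 and HC 4), HC was tested against PC with the quasi-likelihood F-test. The test was tried on simulated data with known changes before use. The SE was derived from the coefficient and its F statistic. Chi-square per degree of freedom between the libraries of a group was 101.8 in PC and 193.2 in HC, so neither pair is 1 library deposited in 2 tables. Alternatives used DESeq2 1.42.0 and limma 3.58.1 (R 4.3.3).

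The 9 genes and all lists were chosen with earlier results of these data known. Named are the 9 genes and, of the other pathway genes, those that passed, the 3 with the highest mean TPM in each role, and 12 of known interest, of which 2 are not reported here. Transcripts are described only in part, chosen after their values were seen. They are the coding forms of Ghr, Lifr and Socs2, the retained introns of Stat3, Osmr and Ghr, and a short model of Il6st.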

Additional observations from a re-analysis of the deposited data

How the results depend on the processing

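No paired analysis was possible because PC and HC share no replicate number. Osmr and Socs2 kept their direction under all 13 alternatives run. They passed under 6 each, but these include the fits without 1 HC library, which lend no support. The others were DESeq2, no filter, at least 50 counts in 2 libraries, and the fit without mitochondrial genes and Gm10800, which was almost the same as the main fit. The 9 genes gave 0 calls with scaling to library size alone, the length offset, limma-trend on log2(TPM + 1) or log2(TPM + 0.1), and protein-coding transcripts alone (added after seeing the data), and 4 higher with DESeq2. Over all genes, higher and lower were 0 and 0 with library size scaling (4394 at an unadjusted p under 0.05), with limma (4260 and 3993) and with coding transcripts (edgeR, 3761 at an unadjusted p under 0.05). They were 1651 and 1468 with DESeq2, 963 and 965 with no filter, 749 and 519 with at least 50 counts in 2 libraries, and 251 and 155 with the length offset. Library size scaling moved the median of all genes to -0.292, limma to -0.388 and -0.588, and no filter to -0.253. Leaving out 1 library gave 361 to 2802 higher and 225 to 3747 lower genes, 0 to 5 higher (5 without HC replicate 3) and 0 to 1 lower of the 9, and 2 to 15 higher and 0 to 12 lower of the other pathway genes. Those other genes had 0 higher and 0 lower with library size scaling, limma and coding transcripts, 9 and 6 with DESeq2, 5 higher with no filter, 2 higher with at least 50 counts, and 0 lower with the length offset. Signs turned for Il6st (0.1116, length offset), Stat5b (0.0052, at least 50 counts; -0.2352 to 0.052 over the fits that leave out 1 library) and Socs3 (-0.1466 and -0.2548, limma). They also turned for Jak2 (-0.068, library size; -0.3714 and -0.4147, limma; -0.4268 without HC replicate 4 to 0.5397 without HC replicate 3), Stat2 (-0.1743 and -0.1982, limma) and Cntfr (0.0732, length offset; -2.728 without HC replicate 4, which passed, to 0.2986 without HC replicate 3). With coding transcripts Ptpn1 turned to -0.024 and Stam to -0.3233. No value of turned sign passed, and the cause was not tested. Socs3 rests on 27 to 82 counts per library.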
